A study of Mus musculus with 6 samples.

Results

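The 40 genes described here code for the machinery of mitosis and the kinetochore. They were taken by symbol from a list of 40 names, and all 40 were found among the 55536 gene entries measured. RNA was sequenced from 6 livers of male C57BL/6 mice, 3 with both copies of Sirt5 (Sirt5+/+), a mitochondrial lysine deacylase, and 3 without it (Sirt5-/-). At 4 weeks of age the mice received 50 µg of PB[CMV-myc-YAP5SA]DS, a transposon plasmid for the active YAP mutant YAP5SA, together with 10 µg of Act-PBase, a transposase plasmid, by hydrodynamic injection, a fast infusion of a large volume that pushes plasmid into liver cells, and the livers were taken 20 days later. All 6 livers therefore carry the YAP5SA plasmid, driven by the CMV promoter in only those hepatocytes that took it up, and no liver without YAP5SA was analysed here. Every comparison is Sirt5-/- minus Sirt5+/+ at that single time. Nothing in the labels says that the libraries come from separate animals, and the spread behind each p-value is that between these 6 samples, which may be technical. In whole-liver RNA, fewer cells of a type and less RNA per cell cannot be told apart.

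During mitosis the kinase CDK1, paired with A-type and B-type cyclins, drives entry, and kinetochores, protein assemblies on the centromeres, attach each chromosome to spindle microtubules. The spindle checkpoint kinases hold back the anaphase-promoting complex (APC/C), a ubiquitin ligase, until all chromosomes are attached. APC/C then marks securin and B-type cyclins for destruction, separase opens cohesin, and a contractile ring divides the cell. Transcription of these genes peaks in G2 and mitosis. It depends on the MuvB core joined by B-MYB and FOXM1, which acts at promoters through the cell cycle genes homology region (CHR), often beside CCAAT boxes bound by NF-Y. Adult hepatocytes are mostly quiescent and re-enter the cycle after injury or under active YAP.

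Before the values, the promoters of the genes are shown, because the letters of this regulatory region are what many of the genes have in common in sequence. Windows of 300 bases, 250 before to 50 after the annotated start, were found for 34 of the 40 genes in the RefSeq table for GRCm38.p6. The CHR letters searched were TTTGAA and TTTAAA, on both strands; TTTAAA reads the same on both. They occurred in 28 of the 34 genes (82.4%), against 30.6% of all 27025 genes of that table. CCAAT, searched on both strands, was present in 25 of the 34 genes (73.5%, against 41.1% of all genes), and 24 of the 34 (70.6%) held both kinds of letters, against 12.2% of all genes. A like share of DNA replication genes held CCAAT, 14 of 19 (73.7%), as did 56 of 87 further mitotic genes (64.4%). The CHR letters were in 47 of those 87 genes (54.0%). Both kinds were in 39.1% of the further mitotic and 21.1% of the replication genes. A match is a description of letters and not a bound site.

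The 6 lines below give 30 bases around the CHR letters, in capitals, of the 6 genes with the smallest p among those whose window holds them; all read 5′ to 3′ on the gene's strand, on GRCm38.p6, from RefSeq.
Top2a (chr11:99024195-99024224, minus strand): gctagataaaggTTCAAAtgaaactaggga
Ccnb2 (chr9:70421533-70421562, minus strand): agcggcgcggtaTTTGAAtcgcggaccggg
Anln (chr9:22389168-22389197, minus strand): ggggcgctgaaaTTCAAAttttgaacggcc
Plk1 (chr7:122159394-122159423, plus strand): gcgggtttgtatTTTAAAtccccgcggcca
Kif23 (chr9:61946780-61946809, minus strand): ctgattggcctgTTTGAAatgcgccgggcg
Cdca3 (chr6:124830194-124830223, plus strand): cgtggagggaagTTTGAAactccgggcttt

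The capital letters begin 23 bases before the start in Top2a and 29 bases before it in Plk1. Those of Kif23, Ccnb2, Anln and Cdca3 begin 2, 4, 21 and 30 bases after it, and the Anln line holds a further TTTGAA in lower case. This placement close to the start was shared by many of the genes: 18 of 34 windows (52.9%) held the letters in the 50 bases from the start onward, against 3.37% of all 32851 windows. Another 9 windows (26.5%) held them in the 50 bases before it, against 5.22% of all windows. In each of the 3 bins from 200 to 51 bases before the start, 8.82% of the genes' windows held them, against 5.38 to 6.76% of all windows, and in the farthest bin 5.88% held them, against 7.10% of all windows.

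The 150 bases before the start of 3 genes are printed to show how CCAAT letters (CCAAT, or ATTGG on the opposite strand) lie upstream of the start, with these and the CHR letters in capitals.
Top2a (chr11:99024190-99024339, minus strand): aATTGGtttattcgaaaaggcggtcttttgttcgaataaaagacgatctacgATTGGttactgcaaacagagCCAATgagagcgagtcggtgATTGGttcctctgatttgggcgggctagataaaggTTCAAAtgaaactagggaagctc
Ccnb2 (chr9:70421555-70421704, minus strand): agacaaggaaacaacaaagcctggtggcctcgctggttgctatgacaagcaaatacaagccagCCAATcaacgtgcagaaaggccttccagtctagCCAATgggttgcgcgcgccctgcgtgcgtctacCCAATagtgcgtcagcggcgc
Plk1 (chr7:122159285-122159434, plus strand): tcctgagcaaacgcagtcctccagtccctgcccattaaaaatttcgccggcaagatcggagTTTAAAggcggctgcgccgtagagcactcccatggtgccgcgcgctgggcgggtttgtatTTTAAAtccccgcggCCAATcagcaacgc

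Top2a carries 4 CCAAT letters and 1 run of CHR letters in this stretch, Ccnb2 carries 3 CCAAT letters and no CHR letters, and Plk1 carries 1 CCAAT and 2 runs of CHR letters. Of the genes above whose stretch is not printed, Anln carries 0 CCAAT letters in its whole window. Kif23 carries 1 and Cdca3 carries 2 in the same stretch. The short E2F letters TTTCGCGC and TTTGGCGC, which are typical of DNA replication promoters, were in 1 of the 34 genes (2.94%, against 0.929% of all genes), while 8 of 19 replication genes (42.1%) held them and 5 of those 19 (26.3%) held the CHR letters. Of the 25 genes with a window that rose in Sirt5-/-, 84.0% held the CHR letters, as did 7 of the 9 that did not pass the test (77.8%). The shares of the 2 groups lie close together.

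**Figure D1:**
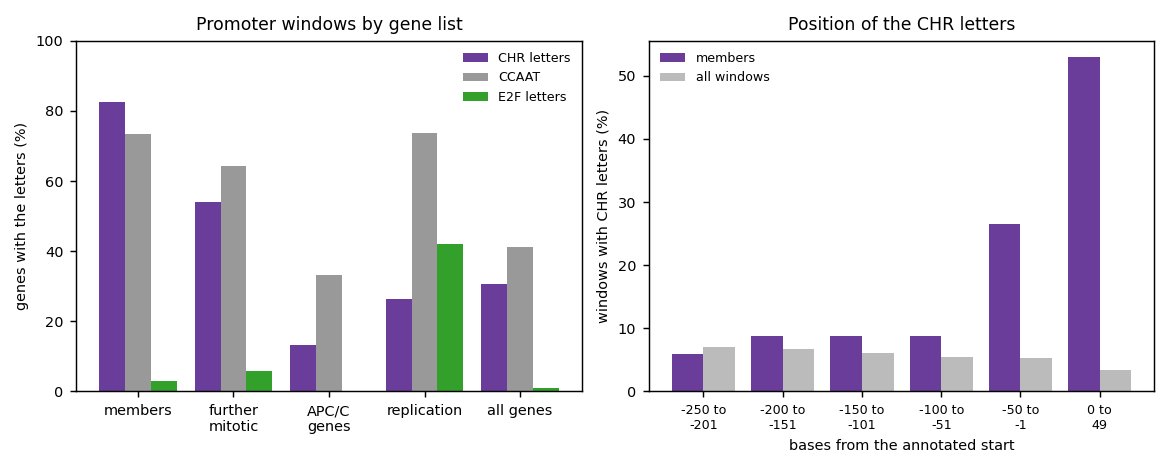
Left, percent of genes with a promoter window that hold the CHR, CCAAT or E2F letters, for the mitosis and kinetochore genes (members), further mitotic genes, APC/C genes, replication genes and all genes of the RefSeq table; right, percent of windows with CHR letters in each bin of 50 bases, against bases from the annotated start. The members stand at 82.4% for CHR letters against 30.6% of all genes, and at 52.9% in the bin from the start onward.

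The targeted gene matched the labels: Sirt5 stood at 16.7, 15.7 and 12.6 CPM in Sirt5+/+ replicates 1 to 3 and at 0.816, 1.24 and 0.497 CPM in Sirt5-/- replicates 1 to 3 (edgeR log2 fold change -4.13 ± 0.38, SE; adjusted p = 0.00146). CPM are counts relative to the library's total after scaling by TMM factors. Libraries held 19307808 to 24330797 estimated counts. Mitochondrially encoded genes took 46.4% of the counts in Sirt5+/+ replicate 3 and 40.8% in Sirt5-/- replicate 1, against 6.58 to 21.5% in the other 4 libraries, and the TMM factors ran from 0.396 to 1.68. Of 14799 genes tested, 2575 rose and 2525 fell in Sirt5-/- (edgeR quasi-likelihood F test, Benjamini-Hochberg adjusted p under 0.05), with a median log2 fold change of -0.08.

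Most of the mitosis and kinetochore genes were higher in the Sirt5-/- livers. By the same test 30 of the 40 rose and 0 fell, where 17.4% of all tested genes rose and 17.1% fell; 34 of the 40 were at an unadjusted p under 0.05, and neither DESeq2, limma-voom nor the authors' deposited table called any of them lower. Their summed level was 61.7, 59.3 and 93.5 CPM in Sirt5+/+ replicates 1 to 3 and 178, 216 and 255 CPM in Sirt5-/- replicates 1 to 3, or 71.5 ± 19.1 against 216 ± 38.4 CPM (SD, n = 3 each), a ratio of 3.03. Every Sirt5-/- library was above every Sirt5+/+ library in this sum. The same separation held for 34 of the 40 genes taken singly, where 25.8% of all tested genes showed it. The median log2 fold change of the 40 was 1.98, in a range of -0.63 to 3.23 (Bub1, whose Sirt5+/+ counts were 0 in 2 libraries), and 39 of the 40 values were positive. With library totals in place of TMM factors the median of all genes moved from -0.08 to 0.60, that of the 40 genes to 2.72, and 33 of the 40 rose, against 16.5% of all genes.

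The genes are expressed at low levels in these livers, most of all in Sirt5+/+. A floor of 3 counts equals 0.0827 to 0.393 CPM, and 4, 0 and 9 of the 40 genes were at or under it in Sirt5+/+ replicates 1 to 3, against 0 in every Sirt5-/- library. The filter's minimum of 0.464 CPM is read on library totals without TMM factors. On that scale 19 of the 40 reached it in all 3 Sirt5+/+ libraries, and the other 21 passed the filter through their Sirt5-/- libraries. Of the 19, 16 rose; the others were Aurka, Pttg1 and Ect2. With no filter 30 of the 40 rose. TPM is per transcript length and was not rescaled between libraries, so it is read here only within a library. The median TPM of the 40 genes was 0.275, 0.675 and 0.210 in Sirt5+/+ and 0.980, 2.65 and 3.04 in Sirt5-/-. These medians show how low the genes stand in each library and do not measure the difference between genotypes. Pttg1, which codes for securin, had the highest TPM of the 40 in each of the 6 libraries, and Ube2c, the ubiquitin-conjugating enzyme of APC/C, came second in all 3 Sirt5-/- libraries.

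The libraries of a genotype did not contribute alike. In TMM-scaled CPM, Sirt5+/+ replicate 3 was the highest Sirt5+/+ library for 24 of the 40 genes. Sirt5-/- replicate 1 was the lowest Sirt5-/- library for 30, and these are the libraries richest in mitochondrial counts. Sirt5-/- replicate 3 was the highest Sirt5-/- library for 31. The order within Sirt5+/+ depends on the scaling, as replicate 3 had the lowest TMM factor of the 6 libraries (0.396). Pttg1 was highest there in CPM, at 24.1. Before scaling it had 389, 306 and 184 counts in Sirt5+/+ replicates 1 to 3, of 21461691, 23410091 and 19307808. Without the mitochondria-rich library of each genotype 35 of the 40 rose. In that fit 3904 of all 15527 tested genes rose. The number of the 40 that rose was 26, 25 and 35 without Sirt5+/+ replicates 1, 2 and 3, and 26, 17 and 13 without Sirt5-/- replicates 1, 2 and 3, in fits of 3 against 2 libraries. Over all genes 2260, 1983 and 3991 rose without Sirt5+/+ replicates 1, 2 and 3. Without Sirt5-/- replicates 1, 2 and 3 these counts were 2047, 1535 and 1441, so the calls of all genes moved in the same direction. The same 13 genes rose in all 6 of these fits: Plk1, Aurkb, Ccnb2, Ube2c, Cdca3, Incenp, Cenpa, Cenpe, Kif23, Tpx2, Anln, Mki67 and Top2a.

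**Figure D2:**
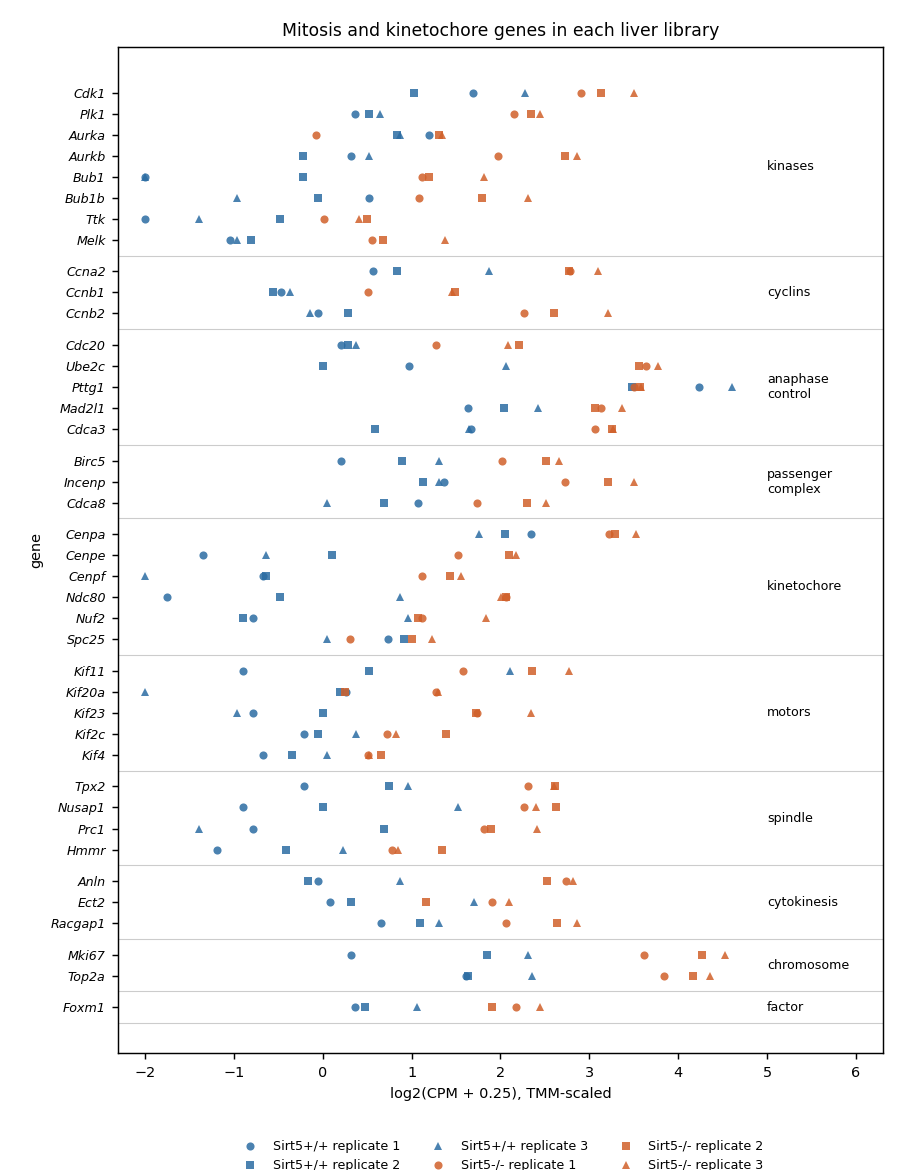
Level of each of the 40 genes in each library as log2(CPM + 0.25), grouped by role; blue symbols are Sirt5+/+ and orange symbols Sirt5-/- libraries, with the shape giving the replicate. The orange symbols lie to the right of all blue symbols for 34 of the 40 genes, and overlap them for Aurka, Pttg1, Spc25, Kif11, Kif20a and Ect2.

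Of the 8 mitotic kinases, 6 rose, with a median log2 fold change of 2.12 over the 8. Aurkb, the catalytic kinase of the chromosomal passenger complex, was at 0.996, 0.607 and 1.18 CPM in Sirt5+/+ and 3.67, 6.37 and 6.99 CPM in Sirt5-/-. The groups did not overlap, and the gene rose by 2.67 ± 0.43 (log2, SE; adjusted p = 0.00327) in edgeR. Plk1, the polo-like kinase of centrosome maturation and kinetochore attachment (ENSMUSG00000030867, chr7:122159439-122169873, plus strand), was at 1.04, 1.18 and 1.31 CPM against 4.20, 4.82 and 5.19 CPM. Its 3 values within each genotype were close together and far apart between genotypes, and it rose by 2.02 ± 0.33 (log2, SE; adjusted p = 0.00344) in edgeR; 14.8% of the 31-base words of its transcripts also occur in its pseudogene Plk-ps1. Cdk1, the kinase that triggers mitotic entry (ENSMUSG00000019942, chr10:69335146-69352938, minus strand), was at 2.99, 1.79 and 4.59 CPM against 7.23, 8.49 and 11.1 CPM. Its groups did not overlap and it rose by 1.57 ± 0.39 (log2, SE; adjusted p = 0.0157) in edgeR, a call that ended without Sirt5-/- replicate 2 or 3 (edgeR adjusted p up to 0.0786).

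Next come the spindle checkpoint kinases and Melk. Bub1, which builds the checkpoint platform on the kinetochore, had 0, 17 and 0 counts in Sirt5+/+ and 33, 74 and 118 in Sirt5-/-, and its rise of 3.23 ± 1.00 (log2, SE; adjusted p = 0.0370) in edgeR ended without any 1 of 4 libraries (Sirt5+/+ replicate 1 or any Sirt5-/- replicate, adjusted p up to 0.129). Without Sirt5+/+ replicate 2, the only Sirt5+/+ library with a count, the fitted value was 8.84, so its size is not determined by these data. Bub1b, which codes for the checkpoint inhibitor BUBR1, rose by 2.09 ± 0.57 (log2, SE; adjusted p = 0.0225), a call that ended without Sirt5+/+ replicate 2, Sirt5-/- replicate 2 or Sirt5-/- replicate 3 (up to 0.113), all in edgeR. Melk, a kinase of proliferating cells, rose by 2.55 ± 0.54 (log2, SE; adjusted p = 0.00810) in edgeR, which ended without Sirt5-/- replicate 3 (0.0598). Ttk, the checkpoint kinase MPS1, was at 0, 0.464 and 0.131 CPM against 0.758, 1.16 and 1.08 CPM, with no overlap. Its difference of 2.16 ± 0.91 (log2, SE; adjusted p = 0.0994) in edgeR did not pass, and passed without Sirt5+/+ replicate 2 (adjusted p = 0.0340) and with library totals (0.0263). It also passed in limma-voom and in the authors' deposited table.

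Among the kinases Aurka had the smallest difference. This spindle-pole kinase (ENSMUSG00000027496, chr2:172356190-172370535, minus strand) was at 2.04, 1.54 and 1.57 CPM in Sirt5+/+ and 0.700, 2.23 and 2.29 CPM in Sirt5-/-. The lowest of the 6 values was Sirt5-/- replicate 1 and the highest Sirt5-/- replicate 3, so the groups overlapped fully. The difference was 0.04 ± 0.51 (log2, SE; adjusted p = 0.964) in edgeR, and its sign changed between fits that left out 1 library (-0.20 to 0.38) and with library totals it was 0.80 (log2). Tpx2, whose protein activates Aurora A on the spindle, was different in the same libraries. The ratio of Tpx2 to Aurka in TPM was 0.138, 0.388 and 0.538 in Sirt5+/+ and 3.33, 1.26 and 1.23 in Sirt5-/-. The ratio of Aurkb to Aurka was 0.496, 0.405 and 0.846 against 8.74, 4.13 and 4.01. Neither ratio overlapped between genotypes; both gave p = 0.100 in an exact two-sided permutation test, the smallest that 3 against 3 allows (adjusted p = 0.120 over the 6 ratios, which were chosen after seeing the data). A ratio within a library shows unequal change and not that either gene was steady.

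All 3 mitotic cyclins rose. Ccnb2, cyclin B2 (ENSMUSG00000032218, chr9:70407692-70421547, minus strand), was at 0.712, 0.964 and 0.655 CPM in Sirt5+/+ and 4.55, 5.84 and 8.97 CPM in Sirt5-/-. Every Sirt5+/+ library was well under every Sirt5-/- library, and the rise was 3.02 ± 0.40 (log2, SE; adjusted p = 0.00207) in edgeR. Ccna2, cyclin A2 of S and G2 phase, was at 1.23, 1.54 and 3.41 CPM against 6.65, 6.56 and 8.31 CPM, and rose by 1.87 ± 0.42 (log2, SE; adjusted p = 0.0107) in edgeR. Ccnb1, cyclin B1 and the main mitotic partner of CDK1, was at 0.474, 0.429 and 0.524 CPM against 1.17, 2.56 and 2.48 CPM. It rose by 2.15 ± 0.50 (log2, SE; adjusted p = 0.0125) in edgeR, with the Sirt5-/- replicate 1 value nearest to the Sirt5+/+ group. The Ccna2 call ended without Sirt5-/- replicate 3 (adjusted p = 0.0553) and the Ccnb1 call without Sirt5-/- replicate 2 or 3 (up to 0.0771), in edgeR. Of the 31-base words in Ccnb1 transcripts 27.7% also occur in other genes, mostly its pseudogene Ccnb1-ps, and 12.5% of the Ccna2 exon bases lie opposite those of Exosc9, so their counts are uncertain to that extent, strand use in the counting not being given.

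Of the 5 genes grouped under anaphase control and protein destruction, 4 rose. Ube2c was at 1.71, 0.750 and 3.93 CPM in Sirt5+/+ and 12.2, 11.5 and 13.4 CPM in Sirt5-/-. The Sirt5-/- values were close to each other while the Sirt5+/+ values were spread, with replicate 3 highest, and the rise was 2.66 ± 0.53 (log2, SE; adjusted p = 0.00652) in edgeR; 22.8% of its exon bases lie opposite those of Tnnc2. Without Sirt5+/+ replicate 3 the Ube2c value was 3.41. Cdca3, an adaptor for the destruction of the CDK1 inhibitor WEE1, was at 2.94, 1.25 and 2.88 CPM against 8.11, 9.26 and 9.36 CPM and rose by 1.95 ± 0.38 (log2, SE; adjusted p = 0.00590) in edgeR. Cdc20, the APC/C activator that the checkpoint captures, rose by 1.87 ± 0.41 (log2, SE; adjusted p = 0.0101), and Mad2l1, the checkpoint protein MAD2, by 1.20 ± 0.30 (log2, SE; adjusted p = 0.0165), both in edgeR. Those 2 calls ended without Sirt5-/- replicate 2 or 3 (edgeR adjusted p up to 0.0671 and 0.0842), and that of Mad2l1 also without Sirt5+/+ replicate 2. Cdc20 shares 25.5% of its 31-base words with other genes, mainly Gm7856.

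Pttg1, the securin that holds separase inactive until anaphase (ENSMUSG00000020415, chr11:43420250-43426251, minus strand), was the only gene of the 40 with a negative value. It was at 18.5, 10.9 and 24.1 CPM in Sirt5+/+ and 11.1, 11.6 and 11.7 CPM in Sirt5-/-. The Sirt5-/- values were nearly equal and lay above the lowest Sirt5+/+ library and below the other 2. The difference of -0.63 ± 0.30 (log2, SE; adjusted p = 0.143) in edgeR did not pass; without Sirt5+/+ replicate 2 it did (-0.91, adjusted p = 0.0400), and with library totals it was 0.19. Espl1, which codes for separase, rose by 1.74 ± 0.56 (log2, SE; adjusted p = 0.0415) in edgeR, a call lost without any 1 library but Sirt5+/+ replicate 3 (adjusted p up to 0.157), where it was 2.56. The ratio of Espl1 to Pttg1 in TPM was 0.0546, 0.0275 and 0.0398 in Sirt5+/+ and 0.232, 0.164 and 0.194 in Sirt5-/-, with no overlap (exact two-sided permutation p = 0.100, adjusted p = 0.120).

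The chromosomal passenger complex corrects faulty attachments and marks the midzone, and its 3 other subunits all rose. Incenp, the scaffold, was at 2.32, 1.93 and 2.23 CPM in Sirt5+/+ and 6.36, 9.01 and 11.1 CPM in Sirt5-/-. Its Sirt5+/+ values were within a narrow range and the rise was 2.04 ± 0.32 (log2, SE; adjusted p = 0.00297) in edgeR. Birc5, which codes for survivin, was at 0.902, 1.61 and 2.23 CPM against 3.79, 5.46 and 6.07 CPM and rose by 1.74 ± 0.42 (log2, SE; adjusted p = 0.0140) in edgeR. Cdca8, which codes for borealin, rose by 1.68 ± 0.42 (log2, SE; adjusted p = 0.0161) in edgeR. The call of Birc5 ended without Sirt5-/- replicate 2 or 3 (edgeR adjusted p up to 0.0705), and that of Cdca8 without either of these or Sirt5+/+ replicate 2 (up to 0.0823).

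Among 6 kinetochore genes 4 rose, from the centromere outward. Cenpa, the histone H3 variant that marks centromeres, was at 4.84, 3.89 and 3.14 CPM in Sirt5+/+ and 9.10, 9.54 and 11.3 CPM in Sirt5-/-. The groups did not overlap and it rose by 1.32 ± 0.27 (log2, SE; adjusted p = 0.00752) in edgeR. Cenpe, the kinesin that carries chromosomes to the spindle equator, was at 0.142, 0.821 and 0.393 CPM against 2.62, 4.02 and 4.25 CPM and rose by 2.93 ± 0.61 (log2, SE; adjusted p = 0.00764) in edgeR, or by 3.95 without Sirt5+/+ replicate 2. Cenpf, a large coiled-coil protein of the outer kinetochore, had 8, 11 and 0 counts against 33, 89 and 97. Its rise was 2.94 ± 0.66 (log2, SE; adjusted p = 0.0102) in edgeR and ended without Sirt5-/- replicate 3 (adjusted p = 0.0537).

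Within the NDC80 complex, the main microtubule coupler, Ndc80 passed the test while Nuf2, Spc25 and Spc24 did not. Ndc80 rose by 2.73 ± 0.83 (log2, SE; adjusted p = 0.0338) in edgeR from 0.0474, 0.464 and 1.57 CPM to 3.91, 3.94 and 3.76 CPM. Its Sirt5-/- values were nearly equal while the Sirt5+/+ values differed widely, and the call ended without Sirt5+/+ replicate 2 or any 1 Sirt5-/- library (adjusted p up to 0.122 in edgeR); without Sirt5+/+ replicate 3 the value was 3.86. Nuf2, its dimer partner, was at 0.332, 0.286 and 1.70 CPM against 1.92, 1.85 and 3.31 CPM, with no overlap. Its difference of 1.83 ± 0.73 (log2, SE; adjusted p = 0.0855) in edgeR passed only without Sirt5+/+ replicate 3 among the fits leaving out 1 library (adjusted p = 0.00169). Nuf2 also passed in DESeq2, in limma-voom, in the authors' deposited table and with library totals. Spc25 was at 1.42, 1.64 and 0.786 CPM against 0.991, 1.76 and 2.10 CPM, overlapping, with a difference of 0.30 ± 0.48 (log2, SE; adjusted p = 0.658) in edgeR. Spc24, the remaining subunit, went from 8.13 ± 1.53 to 5.65 ± 1.06 CPM (SD, n = 3), a difference of -0.53 ± 0.28 (log2, SE; adjusted p = 0.175) in edgeR that was 0.07 with library totals. The ratio of Ndc80 to Spc25 in TPM overlapped between genotypes (exact two-sided permutation p = 0.200).

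Of the 5 kinesin motors, only Kif23 passed the test. Kif23, which codes for the centralspindlin motor MKLP1, was at 0.332, 0.750 and 0.262 CPM in Sirt5+/+ and 3.09, 3.06 and 4.83 CPM in Sirt5-/-, and rose by 2.91 ± 0.50 (log2, SE; adjusted p = 0.00400) in edgeR. Its 3 Sirt5+/+ libraries lay well below the Sirt5-/- libraries, and without Sirt5+/+ replicate 2 the value was 3.54. Kif11, the motor that pushes spindle poles apart, was at 0.285, 1.18 and 4.06 CPM against 2.74, 4.88 and 6.57 CPM, with Sirt5+/+ replicate 3 inside the Sirt5-/- range and a difference of 1.50 ± 0.79 (log2, SE; adjusted p = 0.176) in edgeR. Kif20a, the midzone motor MKLP2, was at 0.949, 0.893 and 0 CPM against 2.16, 0.937 and 2.21 CPM, a difference of 1.36 ± 0.78 (log2, SE; adjusted p = 0.211) in edgeR; 29.3% of its exon bases lie opposite those of Cdc23.

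The remaining motors did not overlap between genotypes but missed the threshold. Kif2c, the depolymerase MCAK, was at 0.617, 0.714 and 1.05 CPM against 1.40, 2.37 and 1.52 CPM, a difference of 1.20 ± 0.47 (log2, SE; adjusted p = 0.0798) in edgeR. Kif4, a chromokinesin, was at 0.380, 0.536 and 0.786 CPM against 1.17, 1.32 and 1.19 CPM, a difference of 1.17 ± 0.49 (log2, SE; adjusted p = 0.0992) in edgeR, with 15.1% of its exon bases opposite those of Pdzd11. Kif11, Kif2c and Kif4 passed without Sirt5+/+ replicate 3 (edgeR adjusted p = 0.00526, 0.0315 and 0.0402), and Kif11 also with library totals (0.00892) and in limma-voom. Whether the motors differ from the other roles was not tested.

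All 4 spindle and midzone proteins rose. Tpx2, the spindle assembly factor, was at 0.617, 1.43 and 1.70 CPM in Sirt5+/+ and 4.72, 5.87 and 5.80 CPM in Sirt5-/-, without overlap, and rose by 2.17 ± 0.43 (log2, SE; adjusted p = 0.00638) in edgeR. Prc1, which bundles midzone microtubules, was at 0.332, 1.36 and 0.131 CPM against 3.27, 3.45 and 5.08 CPM and rose by 2.52 ± 0.66 (log2, SE; adjusted p = 0.0198) in edgeR, 11.1% of its exon bases lying opposite those of Rccd1. Nusap1, a microtubule stabiliser, rose by 2.26 ± 0.68 (log2, SE; adjusted p = 0.0333) and Hmmr, a spindle and hyaluronan-binding protein, by 1.85 ± 0.61 (log2, SE; adjusted p = 0.0462), both in edgeR. These 3 calls rested on single libraries: that of Prc1 ended without Sirt5+/+ replicate 1, Sirt5-/- replicate 2 or Sirt5-/- replicate 3 (largest adjusted p 0.0833 in edgeR), and those of Nusap1 and Hmmr without any 1 library but Sirt5+/+ replicate 3 (up to 0.124 and 0.196). The value of Prc1 was 3.86 without Sirt5+/+ replicate 2 and that of Nusap1 3.33 without Sirt5+/+ replicate 3.

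For cytokinesis, 2 of 3 genes rose. Anln, which codes for the contractile ring scaffold anillin (ENSMUSG00000036777, chr9:22332012-22389188, minus strand), was at 0.712, 0.643 and 1.57 CPM in Sirt5+/+ and 6.42, 5.51 and 6.79 CPM in Sirt5-/-. The lowest Sirt5-/- value was well above the highest Sirt5+/+ value, and the rise was 2.78 ± 0.42 (log2, SE; adjusted p = 0.00276) in edgeR. Racgap1, the RhoA regulator that pairs with MKLP1, was at 1.33, 1.89 and 2.23 CPM against 3.91, 5.98 and 7.01 CPM and rose by 1.66 ± 0.37 (log2, SE; adjusted p = 0.0106) in edgeR, which ended without Sirt5-/- replicate 2 or 3 (adjusted p up to 0.0623). Ect2, the RhoA exchange factor they recruit, was at 0.807, 1.00 and 3.01 CPM against 3.50, 1.98 and 4.03 CPM. Sirt5+/+ replicate 3 lay within the Sirt5-/- range, and the difference of 1.08 ± 0.57 (log2, SE; adjusted p = 0.180) in edgeR passed only without that library among fits leaving out 1 (adjusted p = 0.00809).

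Both chromosome proteins, Mki67 and Top2a, rose. Mki67, the Ki-67 coat of mitotic chromosomes (ENSMUSG00000031004, chr7:135689784-135716361, minus strand), was at 0.996, 3.36 and 4.72 CPM in Sirt5+/+ and 12.0, 19.0 and 22.8 CPM in Sirt5-/-. The mean went from 3.02 ± 1.88 to 17.9 ± 5.50 CPM (SD, n = 3), with no overlap, a rise of 2.62 ± 0.52 (log2, SE; adjusted p = 0.00674) in edgeR. Top2a, the topoisomerase that untangles sister chromatids (ENSMUSG00000020914, chr11:98992943-99024189, minus strand), was at 2.80, 2.86 and 4.85 CPM against 14.1, 17.7 and 20.2 CPM. It rose by 2.34 ± 0.31 (log2, SE; adjusted p = 0.00198) in edgeR, the smallest adjusted p of the 40. Foxm1, the G2 and mitosis transcription factor (ENSMUSG00000001517, chr6:128362967-128376146, plus strand), was at 1.04, 1.14 and 1.83 CPM against 4.26, 3.50 and 5.19 CPM, all Sirt5-/- values above all Sirt5+/+ values. It rose by 1.73 ± 0.38 (log2, SE; adjusted p = 0.00986) in edgeR, a call that ended without Sirt5-/- replicate 3 (adjusted p = 0.0610).

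**Figure D3:**
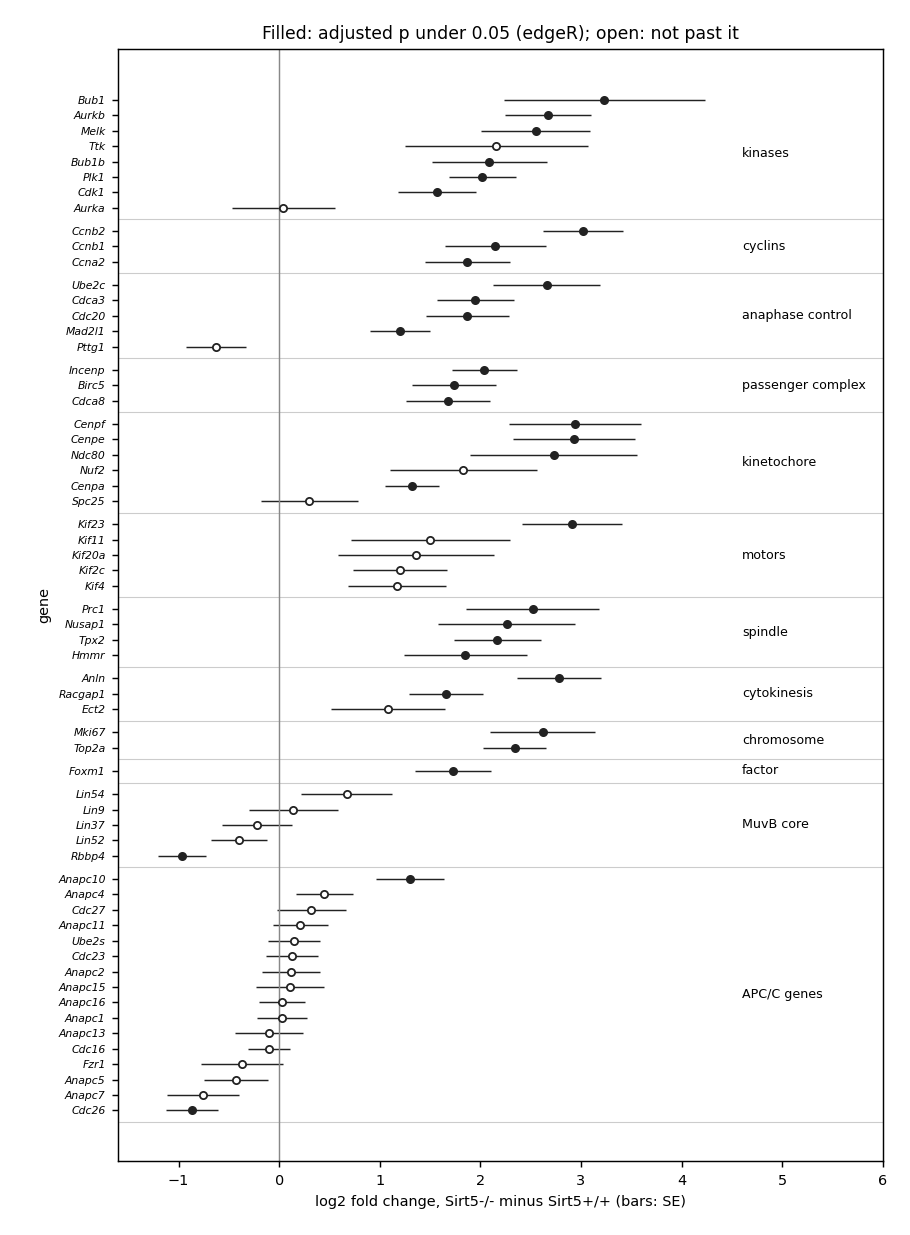
Log2 fold change, Sirt5-/- minus Sirt5+/+, of the 40 genes by role and, at the bottom, of the MuvB core and APC/C genes; points are edgeR estimates, bars are SE, and filled points have an adjusted p under 0.05. The median is 1.98 for the 40 genes and 0.07 for the 16 APC/C genes.

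A wider list of 106 further mitotic genes, of which 101 were tested, was read in the same way: 37 rose and 2 fell, where 17.4% and 17.1% of all tested genes did, and the median log2 fold change was 1.14. Their summed level did not rise with these calls. It was 706, 613 and 512 CPM in Sirt5+/+ and 577, 636 and 693 CPM in Sirt5-/-, overlapping, a ratio of means of 1.04. In such a sum the most abundant genes weigh most. By role, 11 of 31 kinetochore and centromere genes, 12 of 26 spindle genes and 5 of 12 condensin and cohesion genes rose. So did 4 of 15 kinase and cyclin genes, 3 of 7 cytokinesis genes and 2 of 10 transcription factor and MuvB genes. The share of the transcription factor and MuvB genes is the nearest of these to that of all genes. Mis18a, which licenses centromeres for CENP-A loading, went from 1.68 ± 0.598 to 6.95 ± 1.18 CPM (SD, n = 3; log2 fold change 2.03 ± 0.37, edgeR adjusted p = 0.00468). Tacc3, a spindle cross-linker, went from 1.24 ± 0.171 to 6.36 ± 1.01 CPM (log2 2.33 ± 0.32, edgeR adjusted p = 0.00221). Kif20b, a midzone kinesin, went from 0.206 ± 0.0653 to 2.27 ± 0.493 CPM (log2 3.33 ± 0.50, edgeR adjusted p = 0.00265). These 3 genes, like Dlgap5, Cdca2 and Pimreg, rose in all 6 fits leaving out 1 library.

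Others of this list were lost without some libraries. Ska2, Dsn1, Kif22, Smc2, Ncaph, Ncapg2, Pbk, Pkmyt1, Arhgap11a, Iqgap3 and Shcbp1 rose with adjusted p from 0.00972 to 0.0393 in edgeR, and their calls ended in at least 1 such fit. Cep55, an abscission scaffold, had a difference of 2.00 ± 0.68 (log2, SE; adjusted p = 0.0503) in edgeR, which did not pass; it passed without Sirt5+/+ replicate 3 (0.00339) and with library totals (0.00993). It also passed in DESeq2 (adjusted p = 0.0212) and in the authors' deposited table. The number of the list that rose was 15, 16 and 56 without Sirt5+/+ replicates 1, 2 and 3, and 19, 9 and 8 without Sirt5-/- replicates 1, 2 and 3. Ccnf, cyclin F, fell by 1.11 ± 0.30 on the log2 scale (edgeR adjusted p = 0.0225), and among the fits leaving out 1 library this call held only without Sirt5+/+ replicate 3 (up to 0.104 in the others). With library totals Ccnf was at -0.59 and did not pass (adjusted p = 0.624 in edgeR).

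Among the 10 transcription factor and MuvB genes of the wider list 2 rose and 1 fell, where 17.4% and 17.1% of all tested genes did. Of the transcription factors tied to this programme, Mybl2, which codes for B-MYB, went from 0.480 ± 0.414 to 2.07 ± 0.247 CPM (log2 2.28 ± 0.69, edgeR adjusted p = 0.0338), a call lost without any 1 library but Sirt5+/+ replicate 3 (up to 0.105), where it was 2.95. Its relative Mybl1 went from 0.103 ± 0.107 to 1.58 ± 0.482 CPM (log2 3.56 ± 0.71, edgeR adjusted p = 0.00682) and rose in all 6 fits leaving out 1 library (3.33 to 4.46, the highest without Sirt5+/+ replicate 2). E2f1 went from 2.07 ± 0.495 to 4.29 ± 1.62 CPM and did not pass (log2 1.04 ± 0.40, edgeR adjusted p = 0.0764). Of the 5 genes of the MuvB core, which B-MYB and FOXM1 join, 0 rose and 1 fell in edgeR (1 at an unadjusted p under 0.05), with a median log2 fold change of -0.22. The gene that fell was Rbbp4, a histone chaperone of several chromatin complexes, from 110 ± 16.9 to 56.1 ± 1.89 CPM (-0.97 ± 0.24 on the log2 scale, edgeR adjusted p = 0.0159). That call ended without any 1 Sirt5-/- library (up to 0.0900), and with library totals the value was -0.31 and did not pass (edgeR adjusted p = 0.810).

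The ubiquitin ligase that the genes above regulate had no such common direction. Of 16 APC/C genes, its subunits with the activator Fzr1 and the enzyme Ube2s, 1 rose and 1 fell. Of all tested genes 17.4% rose and 17.1% fell. The median log2 fold change of the 16 APC/C genes was 0.07 (0.70 with library totals, where 0 of them rose and 0 fell). Their summed level was 360, 283 and 276 CPM in Sirt5+/+ and 278, 299 and 309 CPM in Sirt5-/-, overlapping. Anapc10, the substrate co-receptor, rose by 1.30 ± 0.34 (log2, SE; adjusted p = 0.0183), and Cdc26, a small scaffold subunit, had a value of -0.87 ± 0.26 (log2, SE; adjusted p = 0.0314), both in edgeR. The first call ended without Sirt5+/+ replicate 2 or any 1 Sirt5-/- library, the other without any 1 library but Sirt5+/+ replicate 3 (adjusted p up to 0.0972 and 0.124). Anapc4 (0.45 ± 0.28) and Anapc7 (-0.76 ± 0.36) passed only without Sirt5+/+ replicate 3 (edgeR adjusted p = 0.0149 and 0.00423). The summed counts of the 40 genes over those of the APC/C genes, which need no scaling between libraries, were 0.171, 0.210 and 0.339 in Sirt5+/+ and 0.643, 0.723 and 0.825 in Sirt5-/-, without overlap (exact two-sided permutation p = 0.100, adjusted p = 0.120). The ratio of Cdc20 to Fzr1, the mitotic and the G1 activator of APC/C, was 0.101, 0.152 and 0.310 in TPM in Sirt5+/+ and 0.677, 0.803 and 0.637 in Sirt5-/-, also without overlap (exact two-sided permutation p = 0.100, adjusted p = 0.120).

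Genes of DNA replication, the phase before mitosis, rose in part: 12 of 23 tested rose and 1 fell (17.4% and 17.1% of all tested genes), with a median log2 fold change of 1.14. Rrm1, of ribonucleotide reductase, went from 8.65 ± 0.301 to 23.6 ± 2.42 CPM (log2 1.44 ± 0.21, edgeR adjusted p = 0.00245). Mcm3 (1.50 ± 0.28) and Mcm4 (1.85 ± 0.35), of the replicative helicase, rose in edgeR with adjusted p of 0.00556 and 0.00550, and like Rrm1 did so in all 6 fits leaving out 1 library. Pcna, the sliding clamp, rose by 1.08 ± 0.24 (log2, SE; adjusted p = 0.0106) in edgeR, a call that ended without Sirt5-/- replicate 2 or 3 (up to 0.0613). Tk1, the thymidine kinase, fell by 1.12 on the log2 scale (edgeR adjusted p = 0.0471), a call that among the fits leaving out 1 library held only without Sirt5+/+ replicate 3 (up to 0.149 in the others), and with library totals it was at -0.56 and did not pass (0.634). Without Sirt5-/- replicate 2 or 3, 3 of the replication genes rose.

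Markers of several cell types in liver moved with the same groups, to be read against the 17.4% of all tested genes that rose and the 17.1% that fell. Of 15 hepatocyte markers 12 fell and 0 rose, their sum going from 129512, 98776 and 100158 CPM in Sirt5+/+ to 41705, 30044 and 22085 CPM in Sirt5-/-. Of 9 macrophage markers 6 rose and 1 fell, with sums of 368, 400 and 316 against 1079, 1713 and 2060 CPM, and of 8 tested T and NK cell markers 6 rose, with sums of 6.97, 4.36 and 8.65 against 32.4, 29.0 and 32.9 CPM. Also 3 of 9 cholangiocyte and 4 of 8 stellate markers rose, as did 1 of 6 tested B cell markers, a share like that of all genes, while 3 of 8 endothelial markers fell. With library totals 2 of the 15 hepatocyte and 0 of the 8 endothelial markers fell, where 325 of all 14799 genes did. The median log2 fold change of the hepatocyte markers was then -1.39, against -1.88 with TMM factors. On that scale 6 of the macrophage and 8 of the T and NK cell markers rose, against 16.5% of all genes. The part of these cell types in the rise of the mitotic genes was not tested.

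Blood precursors, another dividing kind of cell, were checked by their own markers. Of 11 erythroid genes listed 10 were measured and 4 tested, 2 fell and 0 rose, and the sum was 291, 214 and 197 CPM in Sirt5+/+ against 132, 102 and 86.4 CPM in Sirt5-/-. With library totals 1 of the 4 tested erythroid genes fell. The erythroid factor gene Gata1 had 0 to 1 counts in Sirt5+/+ and 0 to 3 counts in Sirt5-/-. Of the myeloid precursor genes, Mpo, Elane and Ctsg had 0 to 2 counts in every Sirt5+/+ library and 0 to 16 counts in Sirt5-/-. The sum of the 9 genes of this list was 2.99, 3.46 and 2.49 CPM in Sirt5+/+ and 5.83, 9.48 and 7.23 CPM in Sirt5-/-, without overlap, and 2 of the 9 were tested. Of these Prtn3 rose, from 1.47, 1.14 and 0.131 CPM to 4.26, 5.68 and 5.55 CPM (2.37 ± 0.57 log2, SE; edgeR adjusted p = 0.0141), a call that ended without Sirt5-/- replicate 2 or 3 (up to 0.0594). Prtn3 made up most of the sum in each Sirt5-/- library, so the sum largely repeats the result of this gene. The other tested gene, S100a9, had a difference of 0.03 ± 0.57 (log2, SE, edgeR adjusted p = 0.972) and did not pass. The part of these cells in the rise of the mitotic genes was not tested either.

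**Figure D4:**
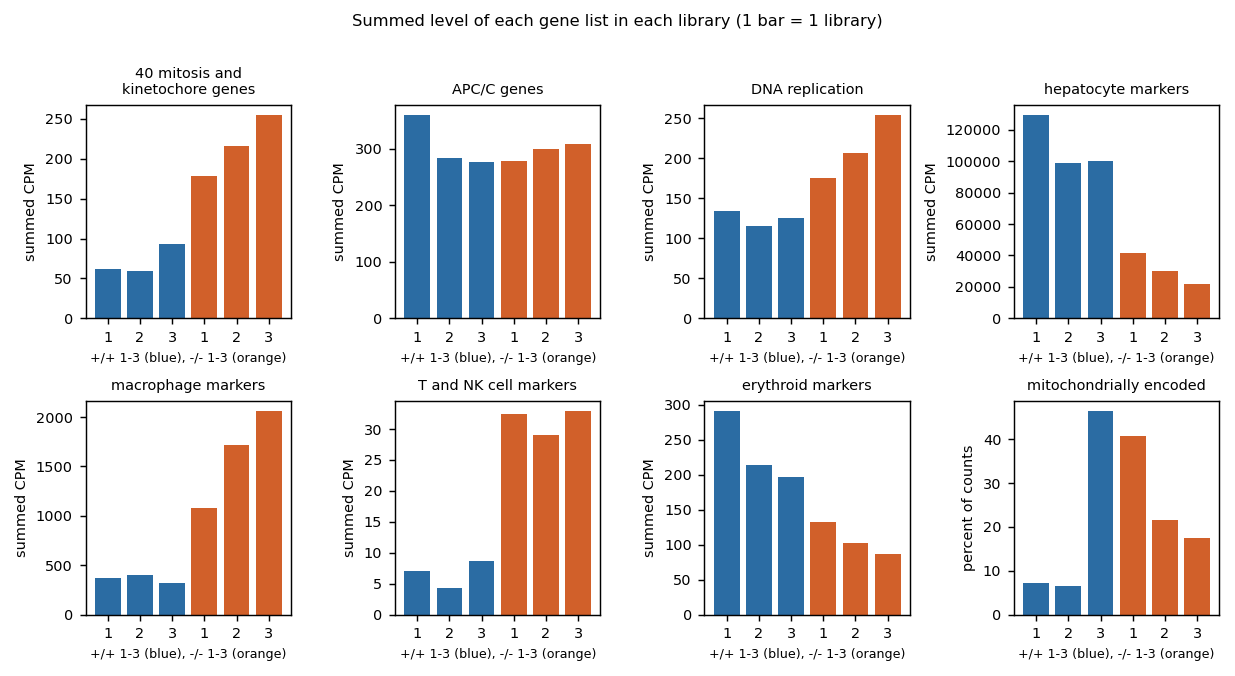
Summed CPM of each gene list in each library, and in the last panel the percent of counts from mitochondrially encoded genes; blue bars are Sirt5+/+ and orange bars Sirt5-/- replicates 1 to 3. The 40 genes sum to 59.3 to 93.5 CPM in Sirt5+/+ and 178 to 255 CPM in Sirt5-/-, beside a lower hepatocyte sum and higher macrophage and T and NK sums in Sirt5-/-.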

How the data were processed

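Whole-liver RNA of 6 libraries, 3 a genotype, was analysed from 1 deposited table. HISAT2 2.1.0, RSEM 1.3.1 and DESeq2 1.24.0 are named per the submitters' processing notes; their roles, options, strand use and genome build are not given in the sources used here. The expected counts (estimated reads per gene, unscaled) and the TPM values were used as deposited by the authors. The log2 fold changes and p-values deposited by the authors are their own comparison and served only as an alternative. All 55536 gene IDs and names match GENCODE M21, so gene positions are on GRCm38.

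Expected counts were rounded, filtered with filterByExpr (a total of at least 15 and a minimum count of 10) and given TMM scaling factors. Genotype was tested two-sided with the quasi-likelihood F test of edgeR 4.0.16 (R 4.3.3), adjusted by Benjamini-Hochberg over 14799 genes, threshold 0.05; each SE is the log2 fold change over the square root of F. CPM use TMM factors. Library totals were 19307808 to 24330797 counts and the common biological coefficient of variation 0.373. No 2 libraries were duplicates by a chi-square comparison of counts.

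The 40 genes, the other lists and the tests were chosen with earlier results of these data known. Values in every library are given for Mki67, Top2a, Cdk1, Ccnb1 and Foxm1, for the 2 genes with the smallest p of each role and for every gene of the 40 that did not pass; up to 4 genes of each further list with the smallest p, and any called APC/C gene, are named. This rule named 73 genes, and 5 more (Spc24, Espl1, Fzr1, Hjurp and Tk1) were named after their values were seen; 1 gene that the rule names is included in its number and not reported here. Also named after their values were seen were the overlapping and marker genes named beside others. Shared sequence is the percent of 31-base words of a gene's transcripts found in other GENCODE M21 genes. Promoter windows are from RefSeq (GRCm38.p6); genes with several starts count once if any window holds the letters. Alternatives were the replicate block, other scalings and filters, DESeq2 1.42.0, limma-voom (limma 3.58.1), the authors' table, a threshold of 0.01, and leaving out single libraries, mitochondrial genes or the library of each genotype richest in them. The steps were tested on simulated data.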

Additional observations from a re-analysis of the deposited data

How the results depend on the processing

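Of the 40 genes, 15 rose at an adjusted p under 0.01, and 13 to 35 rose and 0 to 1 fell (Pttg1, without Sirt5+/+ replicate 2) when 1 library was left out. Their median was 2.72 with library totals and 2.32 without the mitochondria-rich library of each genotype. Correlations of same-numbered deviations were -0.190, 0.115 and -0.204, which shows no pairing by replicate number. With 3 libraries a genotype these values cannot exclude a pairing. With the replicate block 25 of the 40 rose, as did 19 further mitotic, 0 APC/C and 7 replication genes. In that fit 0 APC/C genes fell, 1665 of all genes fell, and Aurka was at -0.11. Over all genes 3904 rose without the mitochondria-rich libraries, 1415 rose and 1181 fell under 0.01, 325 fell with library totals, and 1441 to 3991 rose and 1090 to 3656 fell with 1 library left out. Library totals raised the share of higher calls among all calls from 50.5 to 88.2% and upper-quartile factors to 60.3%. Further mitotic genes that rose were 17 under the stricter filter, which tests 28 of the 40 genes, 58 without the mitochondria-rich libraries, 8 under 0.01 and 8 to 56 with 1 library left out. Of APC/C genes, 0 rose with library totals or under 0.01, 2 without the mitochondria-rich libraries and 0 to 2 with 1 library left out; 0 fell with library totals, upper-quartile factors, no filter or under 0.01, 2 without the mitochondria-rich libraries, and 0 to 3 with 1 library left out. Replication genes that rose were 3 under 0.01. Library totals turned Pttg1 to 0.19, Spc24 to 0.07 and Fzr1 to 0.21; Aurka ranged from -0.20 to 0.38 with 1 library left out and Fzr1 from -0.61 to 0.10 (without Sirt5+/+ replicate 1). The causes were not tested. DESeq2, limma-voom, the authors' deposited table, library totals, DESeq2 size factors and upper-quartile factors each kept all 30 calls. Genes at or under 3 counts in a library give levels too low to rank there.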

Other observations

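Hjurp, the chaperone that loads CENP-A at centromeres, varied widely between the Sirt5+/+ libraries. It was at 51.3, 57.4 and 9.96 CPM in Sirt5+/+ and 10.3, 16.8 and 16.1 CPM in Sirt5-/-. Sirt5+/+ replicates 1 and 2 were far above the other 4 libraries, and the third Sirt5+/+ library lay below all Sirt5-/- libraries. The difference of -1.46 ± 0.56 (log2, SE) did not pass (edgeR adjusted p = 0.0757). It passed without Sirt5+/+ replicate 3 (-1.86, edgeR adjusted p = 0.000375), but in no other fit leaving out 1 library. It also passed in DESeq2 (adjusted p = 0.0256) and in the authors' deposited table. Mis18a, which acts before Hjurp in the same step, rose in Sirt5-/- by 2.03 ± 0.37 (log2, SE; edgeR adjusted p = 0.00468).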
